A study of Mus musculus with 5 samples.

Results

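S100a8, S100a9 and 7 further genes of neutrophils were followed in newborn mice, in the dLGN (dorsal lateral geniculate nucleus), the visual relay of the thalamus. The genes are S100a8, S100a9, Stfa3, Ngp, Camp, Ltf, Lcn2, Mpo and Elane, and they were found by the gene symbol that the platform annotation gives to each probe set. Each gene had 1 probe set, so the 9 genes, of 18193 measured, make 9 of the 45037 probe sets tested. They were chosen with the differences of the comparison described here in view, so these differences are a description: no p-value is given for them, and counts of these genes past a threshold support nothing.

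The tissue came from Sema6A knockout mice (homozygous, Sema6A-/-) and from heterozygous controls, both at P0 on a C57BL/6 background. There were 2 knockout arrays and 3 control arrays, each from dLGN tissue pooled over pups of different litters. Both groups carry the Sema6A mutation on at least 1 chromosome, and the comparison holds no wild type. Neither the nature of the Sema6A mutation nor the sex of the pups is given in the labels. Values are log2 expression after robust multi-array averaging (RMA), 1 value per probe set and array. A difference is knockout minus control on this scale.

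S100a8 and S100a9 are small calcium-binding proteins that pair into calprotectin, which fills the cytosol of neutrophils and is released as an inflammatory signal. Stfa3 is a mouse stefin, an inhibitor of cysteine proteases found in myeloid cells. The other 6 genes encode granule proteins: neutrophils load primary granules with enzymes such as myeloperoxidase early in their maturation in bone marrow, and secondary granules with antimicrobial proteins such as lactoferrin later. Transcripts of granule proteins are abundant in marrow precursors and decline as the cells mature, whereas S100a8 and S100a9 transcripts stay abundant in circulating neutrophils. Healthy brain tissue holds few neutrophils outside its vessels.

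The promoters of S100a8, S100a9 and Stfa3 are shown because these were the 3 genes with signal above background in the control arrays. Each run covers the 250 bases before the annotated start, from RefSeq for GRCm38.p6, written 5′ to 3′ on the strand of the gene. Capitals mark matches on either strand to TATAAA (the TATA box), to TTNNGNAA (a loose form of the site of C/EBP factors) and to AGGAAG (a core of the site of PU.1 and other ETS factors).
S100a8, chr3:90668821-90669070, plus strand: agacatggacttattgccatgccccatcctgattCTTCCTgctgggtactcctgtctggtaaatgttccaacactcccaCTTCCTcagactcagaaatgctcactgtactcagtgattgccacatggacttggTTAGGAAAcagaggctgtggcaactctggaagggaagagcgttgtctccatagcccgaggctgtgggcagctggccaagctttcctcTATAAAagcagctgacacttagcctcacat
S100a9, chr3:90695722-90695971, minus strand: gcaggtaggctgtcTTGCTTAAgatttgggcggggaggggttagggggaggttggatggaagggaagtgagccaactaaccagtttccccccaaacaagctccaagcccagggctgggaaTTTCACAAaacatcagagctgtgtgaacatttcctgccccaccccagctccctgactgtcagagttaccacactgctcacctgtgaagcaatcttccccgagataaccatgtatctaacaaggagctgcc
Stfa3, chr16:36455393-36455642, minus strand: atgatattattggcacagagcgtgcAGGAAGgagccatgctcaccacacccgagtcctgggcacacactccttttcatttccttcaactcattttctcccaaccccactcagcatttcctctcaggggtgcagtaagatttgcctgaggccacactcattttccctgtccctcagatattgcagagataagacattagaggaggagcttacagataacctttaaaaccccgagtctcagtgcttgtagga

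The S100a8 run held 1 match to TATAAA, 1 to TTNNGNAA and 2 to AGGAAG, and none of these overlapped one another. The S100a9 run held 2 matches to TTNNGNAA, and the Stfa3 run held 1 match to AGGAAG. All 9 genes had a promoter in the table: TATAAA occurred in 1 of them, TTNNGNAA in 5 and AGGAAG in 7. Over all 32851 RefSeq promoters, windows of the same length held these motifs in 12.4%, 36.8% and 29.5% of cases, in that order. A match describes letters and is not evidence of a bound factor.

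A level near background was defined from genes that thalamic tissue does not use. On each array, it was the 95th percentile of 83 probe sets of olfactory, vomeronasal and taste receptors, which lay between 4.77 and 4.91. On each single array, 32.0% to 33.5% of all probe sets lay below this level. By this measure 6 of the 9 probe sets were near background on all 5 arrays (Ngp, Camp, Ltf, Lcn2, Mpo and Elane). S100a9 alone was above it on every array, and S100a8 and Stfa3 were above it on the 3 control arrays and below it on the 2 knockout arrays. Probe sets differ in how strongly they bind, so these levels do not rank the genes against each other.

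**Figure D1:**
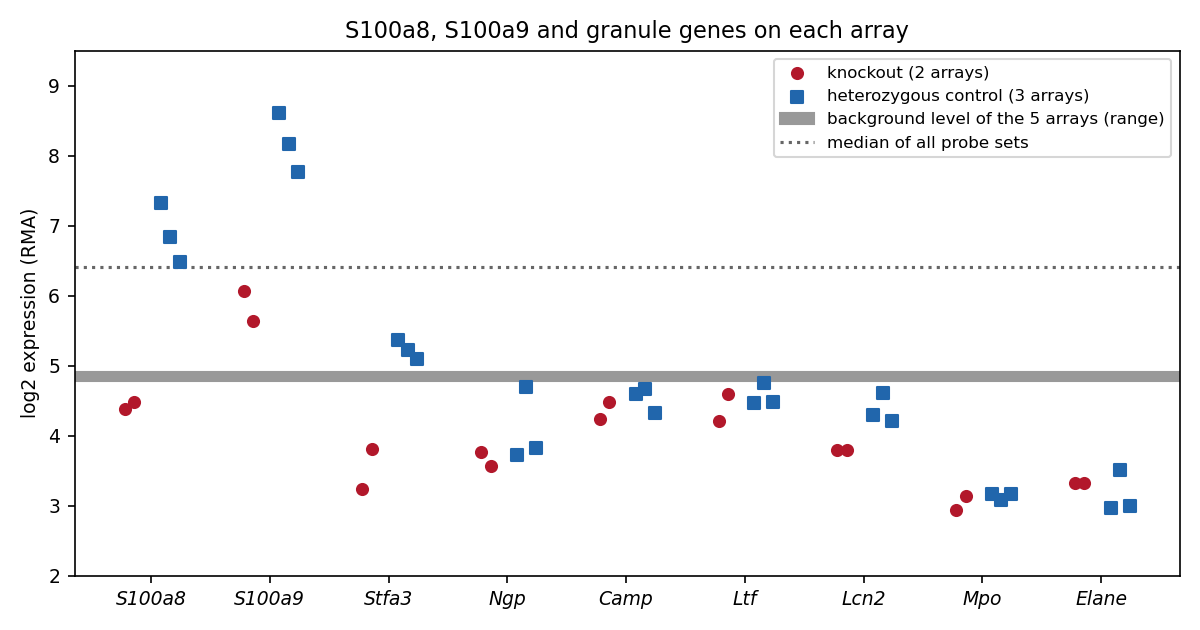
Each point is the log2 expression (vertical axis) of 1 probe set on 1 array, knockout as red circles and heterozygous control as blue squares. The grey band is the range of the background level over the 5 arrays, 4.77 to 4.91, and the dotted line is the median of all probe sets. S100a8, S100a9 and Stfa3 lie lower in both knockout arrays than in all 3 control arrays, while the 6 granule genes to the right lie under the band.

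S100a8 read 4.38 and 4.48 in the knockout arrays, against 7.32, 6.84 and 6.48 in the control arrays. The groups did not overlap, and the gap between the highest knockout array and the lowest control array was 2.01. The knockout averaged 4.43 ± 0.07 (SD, n = 2) and the control 6.88 ± 0.42 (SD, n = 3), a difference of -2.46 with a standard error of 0.25. That is 5.49-fold lower in the knockout as measured. Both knockout readings lay under the background level, so a change can only be bounded: with them set to that level, S100a8 was at least 4.01-fold lower. A higher level would give a smaller bound. The probe set has the suffix _s_at, which marks probes that can match more than one transcript.

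S100a9, the partner of S100a8 in calprotectin, read 6.07 and 5.65 in the knockout arrays, against 8.61, 8.17 and 7.77 in the control arrays. Its knockout mean was 5.86 ± 0.30 (SD, n = 2) and its control mean 8.18 ± 0.42 (SD, n = 3). The difference was -2.32 with a standard error of 0.28, or 5.01-fold lower in the knockout, and every array was above background. The gap between the groups was 1.70, larger than the range of the controls, 0.84.

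Stfa3, the stefin, read 3.24 and 3.81 in the knockout arrays, against 5.37, 5.22 and 5.09 in the control arrays. The difference was -1.70 with a standard error of 0.20, and the groups did not overlap. The control readings were only just above background, and with the knockout readings set to the background level the bound was at least 1.27-fold lower.

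The 3 genes also varied together within the control group. Control replicate 1 was the highest and control replicate 3 the lowest for each of S100a8, S100a9 and Stfa3. That order of the control arrays occurred in 14.7% of all 18193 genes. The range over the controls was 0.84 for S100a8, 0.84 for S100a9 and 0.28 for Stfa3. Between the knockout arrays the genes did not share an order: S100a9 was higher in replicate 1, and S100a8 and Stfa3 in replicate 2. In bulk tissue, fewer cells that make a transcript and less of it per cell cannot be told apart. Which cells gave these 3 signals was not tested.

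The genes of secondary granules had levels near background on every array. Lcn2, lipocalin 2, which binds bacterial siderophores, read 3.80 in both knockout arrays, against 4.29, 4.60 and 4.21 in the control arrays. It differed by -0.57 (standard error 0.15), and its groups did not overlap, but the knockout pair held exactly the same value, which narrows the error. Ngp, neutrophilic granule protein, read 3.76 and 3.57 in the knockout, against 3.72, 4.70 and 3.82 in the control, where control replicate 2 stood above the other arrays. Without that array its difference was -0.10 instead of -0.41. Camp, the cathelicidin precursor, read 4.24 and 4.49 in the knockout, against 4.59, 4.67 and 4.33 in the control. Ltf, lactoferrin, read 4.21 and 4.59 in the knockout, against 4.47, 4.75 and 4.47 in the control. Camp and Ltf differed by -0.16 each, with overlapping groups.

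The primary granule enzymes were also near background on every array. Mpo, myeloperoxidase, read 2.94 and 3.13 in the knockout, against 3.17, 3.08 and 3.17 in the control. Elane, neutrophil elastase, read 3.33 in both knockout arrays, against 2.97, 3.51 and 2.99 in the control. Mpo differed by -0.11 and Elane by 0.17, and their groups overlapped. A change in these 6 genes was not detectable where both groups lay under the background level, which is no evidence that they were absent.

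**Figure D2:**
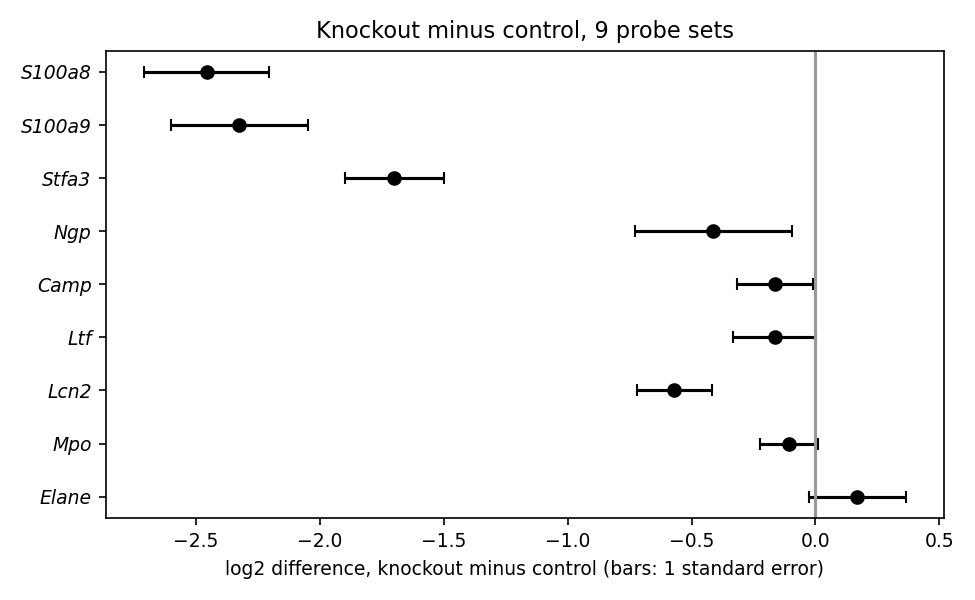
Points are log2 differences, knockout minus control (horizontal axis), of the 9 probe sets, with bars of 1 standard error from the limma fit. S100a8 (-2.46), S100a9 (-2.32) and Stfa3 (-1.70) lie apart from the other 6 genes, which run from -0.57 (Lcn2) to 0.17 (Elane).

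Over all 9 genes the median difference was -0.41, and over all genes it was 0.01. The knockout arrays lay wholly below the control arrays in 4 of the 9 (S100a8, S100a9, Stfa3 and Lcn2), where 14.5% of all probe sets did so, and wholly above them in 0, where 12.9% of all probe sets did so. In limma, 0 of the 9 passed an adjusted p of 0.05, a threshold that 0.0733% of all probe sets passed, 0.00888% in the lower direction. The share was 0.0644% in the higher direction. Taking only the brightest probe set of each gene, 0.104% passed in either direction, 0.0879% as higher and 0.0165% as lower. The genes were chosen with this contrast in view, so nothing is read from these counts.

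The targeted gene followed its label. The brightest Sema6a probe set read 7.81 and 7.85 in the knockout arrays, against 10.47, 10.65 and 10.39 in the control arrays (difference -2.68, limma adjusted p = 0.0236). Its further probe sets differed by -2.27 and -2.52 and missed the threshold (limma adjusted p = 0.0546 each). The 11 markers of thalamic relay neurons measured lay above background on every array. Tcf7l2, a transcription factor of the thalamus, read 12.95 and 13.20 in the knockout, against 12.74 to 12.92 in the control. Gbx2 varied more, at 9.02 and 11.22 in the knockout, against 6.95, 8.86 and 8.64 in the control. Of 11 relay neuron genes, 0 passed the threshold in limma, where 0.104% of all genes did. Array medians lay between 6.39 and 6.42. Knockout replicate 1 stood apart in several measures, of which 2 are given here. The excess of the 3′ over the 5′ Gapdh probe set was 2.34 there, while the control arrays spanned 0.77 to 1.33. Isl1, a prethalamic gene, stood at 9.12 in that array and 4.59 in the other knockout array, while the control arrays spanned 2.87 to 3.94. Without that array the differences were -2.41 for S100a8, -2.53 for S100a9 and -1.42 for Stfa3.

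The genes most like S100a8 over the 5 arrays were sought by the root mean square difference between probe sets, each centred on its own mean, among 18192 other genes. S100a9 was the nearest, at 0.178. It was followed by Sema6a (0.284), Stfa2l1 (0.286), the cholecystokinin gene Cck (0.311), Gsg1l (0.363), an auxiliary subunit of glutamate receptors, and Snx31 (0.394), and Stfa3 came at place 9 (0.436). From S100a9 the order was S100a8, then Cck (0.327), Sema6a (0.343), Gsg1l (0.345), Stfa2l1 (0.357) and Hdc (0.382), the gene of histidine decarboxylase. Cck (-2.12, adjusted p = 0.0236) and Gsg1l (-2.51, adjusted p = 0.0331) fell in limma, and Cck read between 11.81 and 11.90 in all 3 controls, without the spread of S100a8. The measure rests on 5 arrays and takes in the difference between the groups. Genes found this way were therefore likely to be lower in the knockout, and the adjusted p-values of Cck and Gsg1l add no support.

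**Figure D3:**
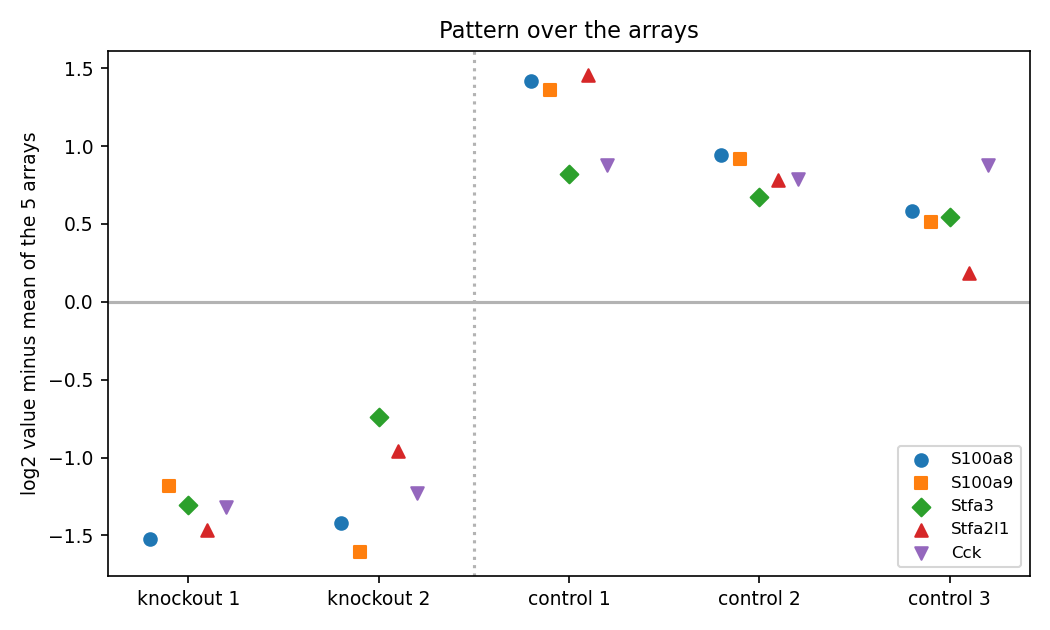
The vertical axis is the log2 value of each probe set minus its mean over the 5 arrays, given for each array. In the control arrays S100a8, S100a9, Stfa3 and Stfa2l1 are highest in replicate 1 and lowest in replicate 3, whereas Cck stays level.

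Stfa2l1, a further stefin gene of the chromosome 16 cluster that holds Stfa3, was in a list of stefins and cystatins. It read 4.29 and 4.79 in the knockout arrays, against 7.21, 6.53 and 5.93 in the control arrays, and its difference was -2.02 with a standard error of 0.39 (limma adjusted p = 0.189). The groups did not overlap, but the difference missed the threshold. Both knockout readings were near background, and the bound was at least 3.21-fold lower. Of the 12 protein-coding genes from Csta1 to Stfa3 in this cluster, 3 had a probe set of their own, and the third, Csta1, read 2.60 to 3.03 over the arrays. Stefin genes are close copies, and whether these probe sets read other copies was not tested. Of 6 stefins and cystatins measured, 0 passed the threshold in limma, where 0.104% of all genes did. Their median was -0.07. Cstb, the ubiquitous stefin B, differed by 0.14. Cst7, cystatin F, stood at 9.74 and 4.38 in the knockout arrays, while the controls spanned 3.79 to 4.14. All Cst7 readings but that of knockout replicate 1 lay under the background level.

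The neighbours of S100a8 and S100a9 on chromosome 3 had differences nearer to 0. The pair lies in the S100 gene cluster, and 7 further genes near the pair were measured. They ranged from -0.06 (S100a3) to 0.46 (S100a6), with a median of 0.23. In limma 0 of the 7 passed, where 0.104% of all genes did. S100a3 and S100a5 were near background on all 5 arrays. In a list of the S100 family, which also held S100pbp, a binding protein that is no S100 protein, 12 genes were measured besides S100a8 and S100a9, with a median of 0.23 and 0 past the threshold. S100a4, a regulator of cell motility, differed by 0.32, S100a10, the annexin A2 partner, by 0.07 and S100b, a protein of glia, by 0.34.

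**Figure D4:**
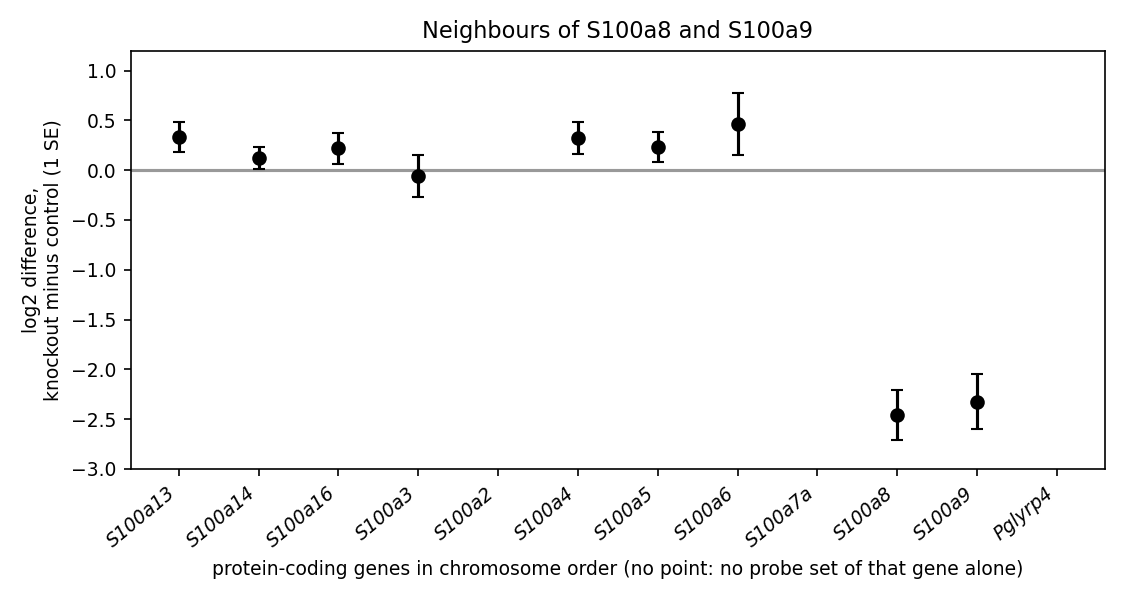
Points are log2 differences, knockout minus control, of genes in their order along the S100 cluster, with bars of 1 standard error. S100a8 (-2.46) and S100a9 (-2.32) lie far below their 7 measured neighbours, which run from -0.06 to 0.46.

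Further genes of neutrophils gave mixed values, and those that lay near background could not show a lower level. Of 7 further primary granule genes, 6 were above background on all 5 arrays. In limma 0 of the 7 passed, where 0.104% of all genes did, and the median was 0.19. The 6 include Gusb, Fuca1, Ctsc and Serpinb1a, and which cells gave their signal was not tested. Prtn3, proteinase 3, differed by 0.09 and Ctsg, cathepsin G, by 0.12, while Ms4a3, a membrane gene of granulocyte precursors, read 5.61 and 5.90 in the knockout, against 4.88 to 5.16 in the control (0.71, adjusted p = 0.218). Of 16 further genes of secondary and tertiary granules, 0 passed, with a median of -0.02, and 7 were near background on all 5 arrays. The collagenase gene Mmp8 differed by -0.13, the gelatinase gene Mmp9 by 0.26 and the ficolin gene Fcnb by -0.13. Of these, Ctsg, Mmp8 and Fcnb lay under the background level on every array. Prtn3 (7.69 to 8.48 over the arrays) and Mmp9 (8.44 to 9.38) lay above it on every array. Cd177, a surface protein stored in secondary granules, read 3.72 and 4.62 in the knockout, against 5.09, 4.96 and 5.07 in the control, a difference of -0.88 (adjusted p = 0.349). Its control readings were just above background, and its groups did not overlap.

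Of 14 genes of the neutrophil surface and of migration, 0 passed in limma, where 0.104% of all genes did. On all arrays, 10 of the 14 were near background. The median was 0.12. Cxcr2, the chemokine receptor that draws neutrophils, read 2.63 and 2.83 in the knockout, against 2.71 to 3.13 in the control. Csf3r, the receptor for granulocyte colony-stimulating factor, read 4.57 and 3.88 in the knockout, against 3.21 to 3.28 in the control (0.99, adjusted p = 0.231), again under the background level. Ly6g, Cebpe, Stfa1 and Stfa2 had no probe set assigned to them alone. Summed on the linear scale, the 14 surface genes came to 425 and 398 in the knockout arrays, against 373 to 403 in the control arrays. With 10 of them near background on all arrays, this sum is no measure of neutrophil content.

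Among 10 transcription factors of granulocytes 1 rose and 0 fell, where 0.0879% of all genes rose and 0.0165% fell. The median was 0.01. Cebpa, which drives myeloid precursors and is also active in microglia, rose to 8.36 and 8.35 in the knockout, against 6.67 to 6.74 in the control (1.65, limma adjusted p = 0.0236). Gfi1, a repressor needed for neutrophil maturation, read 3.49 and 3.22 in the knockout, against 3.50 to 4.69 in the control. These readings all lay under the background level. Of 5 subunits of the phagocyte oxidase, which neutrophils and microglia share, 0 passed in limma, but both knockout arrays lay above every control array for all 5, as they did in 15.8% of all genes. The median was 1.04, with Ncf1 at 1.15 (adjusted p = 0.112) and Cybb, the catalytic subunit, at 0.54.

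Receptors and carriers of the members' products were measured as well. Of 13 genes of S100a8 and S100a9 reception and its signalling, 0 passed in limma, where 0.104% of all genes did. The median was 0.11. Tlr4, a receptor for S100a8 and S100a9, stood at 6.02 and 4.02 in the knockout arrays, while the controls spanned 3.29 to 3.73. All Tlr4 readings but that of knockout replicate 1 lay under the background level. Ager, the receptor for advanced glycation end products, differed by -0.41 (adjusted p = 0.361), and Ly96, the partner of Tlr4, by 0.11. Of 6 genes of siderophore and iron handling 0 passed, with a median of 0.06, and Slc22a17, the Lcn2 receptor, read 11.85 and 11.94 in the knockout, against 11.98 to 12.02 in the control.

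**Figure D5:**
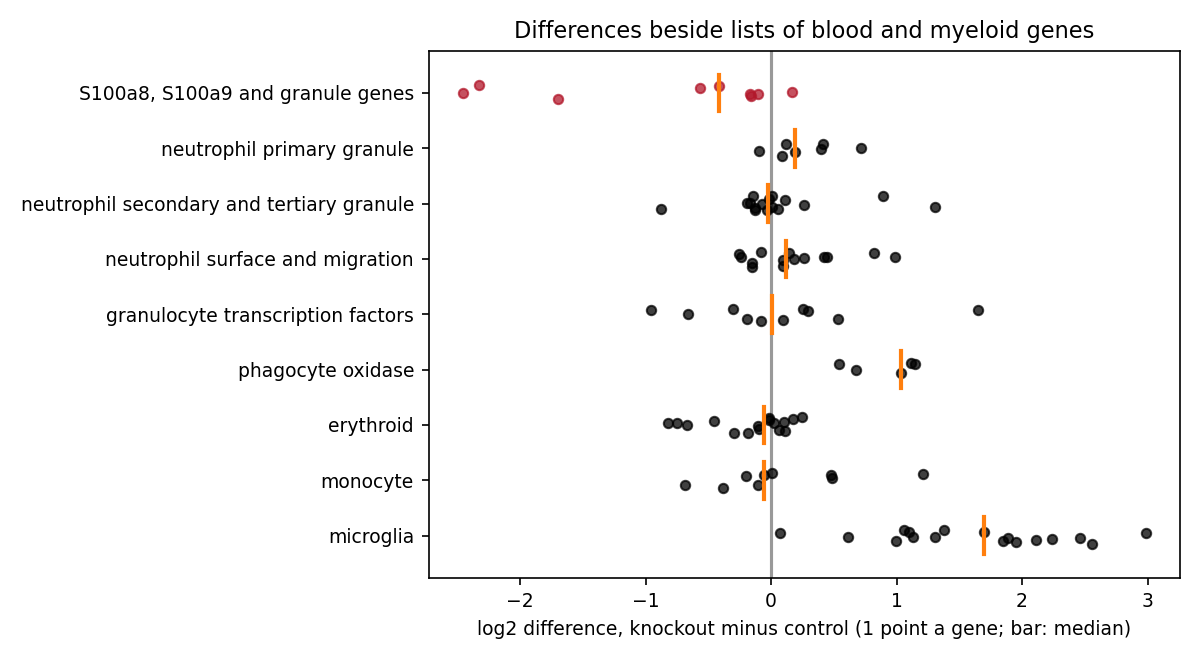
Each point is the log2 difference, knockout minus control, of 1 gene, and the orange bar is the median of each list. The median of the 9 genes is -0.41; the microglia genes lie highest, with a median of 1.70, and the erythroid genes have a median of -0.06.

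Markers of other blood cells were set beside these values. Erythroid genes, which would come with blood in the tissue, summed to 4116 and 5366 on the linear scale in the knockout arrays, against 5152 to 6204 in the control arrays. Of 16 measured 0 passed in limma, where 0.104% of all genes did, and the median was -0.06. The globin gene Hba-a2 differed by -0.29, Alas2, of heme synthesis, by -0.45 and Slc4a1, the red cell anion exchanger, by -0.82 (adjusted p = 0.156). Their part in the lower S100a8 and S100a9 was not tested. Microglia genes summed to 15270 and 11072 in the knockout, against 2924 to 3769 in the control. Of 17 measured 2 rose in limma, Lyz2 by 2.98 and Tyrobp by 2.46 (adjusted p = 0.0236 each), where 0.0879% of all genes did. Cx3cr1 differed by 1.85 (adjusted p = 0.0522) and P2ry12 by 1.38 (adjusted p = 0.227). Between the groups, S100a8 and S100a9 were low where microglia genes were high. Within the groups the order was mixed, and so few arrays cannot decide whether these genes vary together. Control replicate 1 had the highest control values of the microglia sum (3769), S100a8 (7.32) and S100a9 (8.61). Knockout replicate 1 had the higher microglia sum and the higher S100a9 of the knockout arrays, but the lower S100a8. Both of these S100a8 readings lay under the background level. A link to microglia was not tested.

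Lists of further cells held 0 genes past the threshold in limma, against 0.104% of all genes. The medians were -0.06 for 9 monocyte genes, -0.07 for 9 genes of border macrophages, 0.07 for 12 lymphocyte genes, -0.16 for 9 platelet genes and -0.03 for 9 genes of mast cells and basophils. The monocyte marker Ccr2 read 2.46 to 2.65 over all arrays and the mast cell marker Cpa3 3.37 to 3.66, both under the background level. The monocyte gene Plac8 differed by 0.48, the macrophage genes Mrc1 and Lyve1 by -0.54 and 0.04, and the lymphocyte genes Cd3e and Cd79a by 0.16 and -0.12. The platelet genes Ppbp and Itga2b differed by -0.06 and -0.20, and the mast cell gene Mcpt4 by 0.24. Meningeal and fibroblast genes had a median of -0.33 over 13 genes. Their sum was 2302 and 2478 in the knockout, against 2831, 2647 and 5403 in the control, and Dcn read 4.60 and 4.56 in the knockout, against 4.99, 4.47 and 7.01 in the control, while Col1a1 differed by -1.95. Among the 3 controls, S100a8 and S100a9 were lowest in replicate 3, where the sum was highest, while over all 5 arrays both they and the sum were lowest in the knockout arrays. The median was 0.27 over 7 genes of choroid plexus and ependyma, where Ttr differed by 0.04. It was 0.15 over 12 endothelial genes, where Cldn5 differed by 0.18 and Pecam1 by -0.16, and 0.20 over the relay neuron genes, where Gbx2 differed by 1.97 and Slc17a6 by -0.11. It was 1.37 over 11 GABAergic and prethalamic genes. The GABAergic sum was 8545 and 2010 in the knockout, against 2141, 1346 and 1840 in the control, so knockout replicate 1 alone stood high. Gad1, with a difference of 1.06, read 10.40 and 8.25 in the knockout, against 9.02, 7.25 and 8.54 in the control, and knockout replicate 2 lay within the controls.

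Counts at an unadjusted p under 0.05 in limma stand beside the counts of 0 given above. They were 2 of 7 primary granule genes, 2 of 16 secondary and tertiary granule genes, 2 of 14 surface genes, 5 of 5 oxidase genes and 2 of 16 erythroid genes. In the lists nearer to the S100 genes and stefins they were 1 of 12 S100 genes, 1 of 6 stefins and cystatins, 4 of 13 receptor genes and 2 of 6 siderophore genes. In the remaining lists they were 4 of 9 monocyte, 1 of 9 border macrophage, 1 of 12 lymphocyte, 0 of 9 platelet, 0 of 9 mast cell, 1 of 13 meningeal, 0 of 7 choroid plexus, 3 of 12 endothelial, 3 of 11 relay neuron and 4 of 11 GABAergic genes. Over all probe sets, 5021 of 45037 lay under that p.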

How the data were processed

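The deposited table holds log2 expression values, 1 per probe set and array, which the authors computed by RMA (named in the submitters' processing notes). This method corrects background, equalises the distributions of the arrays and summarises probes, so it compresses differences near background and hides a shift shared by most genes. Version, settings and build: not given in the sources used here. Per the labels' protocols, RNA of microdissected tissue was amplified before hybridisation, and the number of arrays limits the precision.

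Of 45101 probe sets, 64 array controls were left out. The platform annotation gave 34945 probe sets 1 gene symbol, 932 several and 9160 none, and no gene was named from several. By gene ID, 34741 were found in the RefSeq table of GRCm38.p6, with 0 symbols changed. Differences, standard errors and adjusted p-values come from lmFit and eBayes in limma 3.58.1 (R 4.3.3), two-sided, with genotype alone in the model and p-values adjusted by Benjamini-Hochberg over 45037 probe sets. The fit was checked on simulated data. The p-values measure the spread between pools. An exact permutation of 2 against 3 arrays, on the absolute difference, could not give a p below 0.1, so none was run.

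In the 21 lists each gene was represented by its brightest probe set. Named genes were all 9 genes of interest, Sema6a, 1 to 4 genes marked in each list whatever their values, any list gene past the threshold, and the 6 nearest patterns. Cst7, Csta1, S100a3, S100a5, S100pbp, Gusb, Fuca1, Ctsc and Serpinb1a fall outside this rule, and they were picked with their values known. The genes and the lists were chosen with earlier results of these data known, so calls in the lists are a description as well. The alternatives were each array left out, a replicate block, other scalings, a filter on dim probe sets, other spread estimates, array weights, a looser threshold, another background level and gene means.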

Additional observations from a re-analysis of the deposited data

Results flagged for a closer look

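Probe sets that serve as controls on the array, and enter no comparison above, set knockout replicate 1 apart. The excess of the 3′ over the 5′ probe set was 2.34 for Gapdh in that array, against at most 1.33 in a control array, and 1.91 for Actb, against at most 1.45. In knockout replicate 2 the excess was 0.96 for Gapdh, and for Actb it was 0.97.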

How the results depend on the processing

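The lower readings of S100a8, S100a9 and Stfa3 kept their direction under every alternative run. With 1 array left out, the difference ranged from -2.66 to -2.24 for S100a8, from -2.54 to -2.11 for S100a9 and from -1.98 to -1.42 for Stfa3, and under the other alternatives S100a8 and S100a9 lay between -2.66 and -2.32. Among the dim genes the same ranges were -0.59 to -0.10 for Ngp, -0.28 to -0.04 for Camp, -0.36 to 0.03 for Ltf, -0.65 to -0.45 for Lcn2, -0.20 to -0.009 for Mpo and 0.08 to 0.35 for Elane; Ltf reversed to 0.025 without knockout replicate 1.

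The count of 33 probe sets past the threshold was far less stable. It was 0 with any 1 array left out and 0 with the replicate block, 19 with array weights, 98 without dim probe sets, 100 with an intensity trend and 158 at an adjusted p of 0.10. Of the 9 genes, 0 passed with any 1 array left out, 1 passed without dim probe sets (S100a9, the only one left) and 1 with an intensity trend (S100a8), and since the genes were chosen on this contrast these calls support nothing. The 3 list genes past the threshold became 0 with any 1 array left out and 0 with the replicate block, 5 after a further quantile normalisation, 8 without dim probe sets, 7 with an intensity trend and 9 with gene means. Sema6a kept a difference between -2.73 and -2.60 with 1 array left out, at adjusted p-values from 0.0654 to 0.234, and gave -2.73 with the replicate block (adjusted p = 0.298). The replicate numbers are shared by only 2 pairs of arrays, whose deviations from the group means correlated at 0.148 and 0.212, and with fewer than 3 pairs this does not settle whether the numbers pair the samples. The causes were not tested. Near-background calls covered 6 of the 9 genes, and 7 with the median of all probe sets as the level. Both knockout readings of S100a9 also lay under that median, and its control readings above it. The bounds on fold changes given above hold for the first level only.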
